A study of Mus musculus with 16 samples.

Results

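The comparison described here is the effect of tirzepatide on RAW264.7 cells, a mouse macrophage line, over 8 libraries with the drug against 8 without it. The libraries were chosen by treatment label alone and are all 16 of the series: 4 received tirzepatide (100 nmol/ml as the labels write it, a unit that may stand for nmol/l), 4 received oxidised low-density lipoprotein (oxLDL, 50 µg/ml) together with tirzepatide, 4 were vehicle controls and 4 received oxLDL alone. All cells were grown in high-glucose medium with serum. The labels give no treatment time, and nothing in them ties the 4 libraries of a group to separate cultures, so the p-values reflect library-to-library spread that may be technical. The line is a leukemia-derived macrophage line, so it stands for primary macrophages only in part.

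Tirzepatide is a peptide agonist of both incretin receptors, those of GIP and of GLP-1, which signal through Gs proteins and cyclic AMP. oxLDL is taken up by macrophage scavenger receptors and turns the cells into lipid-laden foam cells. Among the genes that follow a cell's sugar supply are the α-arrestins Txnip and Arrdc4, which restrain glucose uptake and are switched on by the sugar-sensing factor MondoA.

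Each gene was given 1 tirzepatide coefficient in an additive model with oxLDL exposure as the other factor, fitted with edgeR's quasi-likelihood method, and was called when its Benjamini-Hochberg adjusted p was below 0.05. The coefficient is a log2 change, positive where the libraries with tirzepatide were higher. The change was also estimated within each oxLDL setting, as tirzepatide against control and as oxLDL with tirzepatide against oxLDL. Levels are given in TPM, a transcript abundance scaled for gene length and depth.

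Library totals were between 15877278 and 17336019 counts, and 12951 to 13260 genes had a count. The line's macrophage markers were present, with all 20 above 0 in at least some libraries and summed levels of 23100 to 26800 TPM with tirzepatide and 19700 to 26200 TPM without. Pancreatic acinar markers, which macrophages lack, summed to 8.85 to 70.4 TPM with tirzepatide and 7.43 to 336 TPM without, and the highest were controls 1 and 2 at 336 and 183 TPM. Of the 30 acinar markers, 28 were in the table, 2 were at 0 in every library and none of the 14 tested was called.

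The library labelled oxLDL with tirzepatide 2 went against its label in genes that oxLDL raised. Il1b, the inflammatory cytokine interleukin-1β, had 3.91 TPM there, against 23.2, 25.9 and 23.4 TPM in the other oxLDL with tirzepatide libraries and 3.38 to 4.03 TPM in the libraries with tirzepatide alone. Plin2, a lipid droplet coat protein, had 524 TPM there, against 708, 727 and 785 TPM in the rest of its group and 490 to 520 TPM with tirzepatide alone. With it left out, 278 genes were called (138 higher, 140 lower). For some genes the value without this library is given beside the full one. Most other values, list counts included, come from fits that hold it. Nod2 and H2-T24, named further on, were not looked at in the fit without this library. Of the other called genes named here, 4 lost their call in that fit, Csf1r (adjusted p = 0.054), Oas1a (adjusted p = 0.0593), Chac1 (adjusted p = 0.0506) and Snrpg (adjusted p = 0.0514, edgeR).

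Tirzepatide shifted many genes by small amounts and few by large ones. Of 11319 genes tested, 294 were called, which is 2.6% of those tested, with 157 higher and 137 lower with tirzepatide. Among the called genes, 75 changed at least 1.2-fold (29 higher, 46 lower), and 10 changed at least 1.5-fold (3 higher, 7 lower, of which 3 are the amylases Amy2a2, Amy2a3 and Amy2a4 described further on). In all, 2054 genes, the called ones included, had an unadjusted p below 0.05. The count itself rested on single libraries: leaving out tirzepatide 1, 2 or 3 left 86, 103 or 144 genes, leaving out control 2 or 3 left 100 or 87, leaving out oxLDL 3 or 4 left 171 or 154, and leaving out control 1 gave 545. Of the 294 genes, 76 were called with any single library left out, 38 each way.

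The direction was shared by both oxLDL settings for 292 of the 294 called genes, 156 higher and 136 lower. Over all tested genes the share with the same sign in both settings was 56.2%, and since the coefficient pools the settings, called genes are drawn towards a shared sign. A stricter reading, with an unadjusted p below 0.05 in each setting by itself, kept 178 genes (94 higher, 84 lower). The change was smaller with oxLDL for 236 of the called genes. Over the called genes the median absolute log2 change was 0.231 without oxLDL and 0.144 with it, and over all tested genes it was 0.0851 and 0.0709. Tested alone, tirzepatide against control gave 462 calls (4.08% of genes), 184 of them among the 294. The comparison of oxLDL with tirzepatide against oxLDL gave 4 (0.0353%), of which 3 were among the 294: Klf10, Txnip and Arrdc4. A call in one setting and not the other does not show a difference, and the interaction itself was called for 8 genes (0.0707%).

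**Figure D1:**
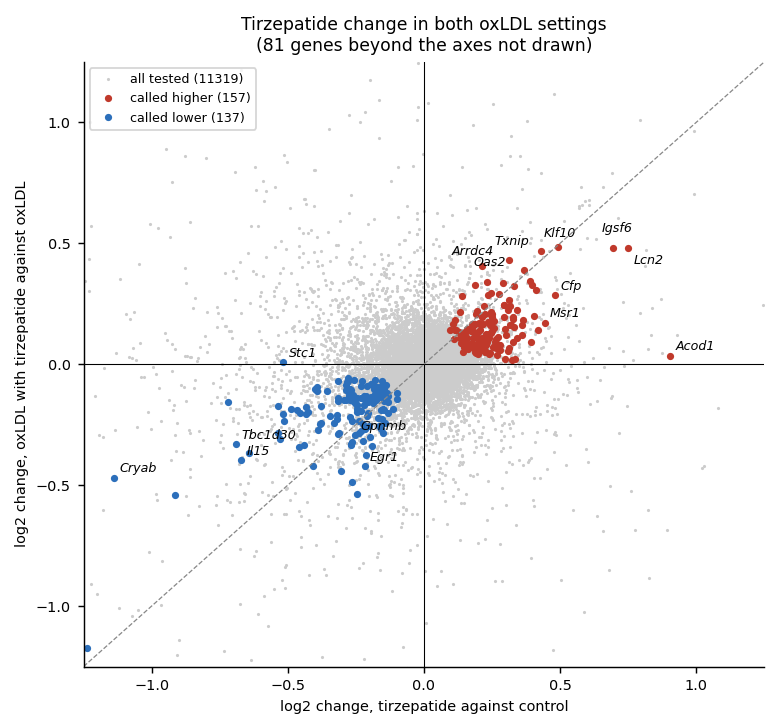
Log2 change with tirzepatide for each tested gene, without oxLDL on the horizontal axis and with oxLDL on the vertical axis; red points are the 157 genes called higher, blue points the 137 called lower, grey points all 11319 genes, and the dashed line marks equal change. Klf10 and Txnip lie near the dashed line, Cryab lies below zero on both axes, and Acod1 lies near zero on the vertical axis.

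The libraries did not overlap in either setting, and moved the same way in both, for 85 tested genes on the TPM scale (0.751%). Of these 77 were higher (0.68% of tested genes) and 8 lower (0.0707%), and 50 of the 85 were called, 45 higher and 5 lower. On TMM-scaled CPM the split was more even, with 70 tested genes (0.618%, 45 higher and 25 lower), of which 58 were called, 38 higher and 20 lower.

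The clearest changes were in genes of the sugar-sensing group. This list was chosen with earlier results of these data known, so its count is a description. Klf10, Txnip and Arrdc4 rose in both settings and were the 3 called members of the 12 tested MondoA and ChREBP targets, with none called lower, against 1.39% of all genes called higher. The median log2 change over these 12 genes was 0.08, against -0.00152 over all genes. Without oxLDL with tirzepatide 2 and controls 1 and 2 the median over the 12 was 0.03. Only the α-arrestins Txnip and Arrdc4 were called among the 7 tested members of the α-arrestin and MondoA-Mlx list (28.6%, against 2.6% of all genes). Arrdc3, another α-arrestin, had a log2 change of -0.12 (adjusted p = 0.588).

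The promoters of Txnip and Arrdc4 are shown because both genes moved together and both are known MondoA targets that carry E-box elements near the start site. The sequences are the 250 bases before the annotated start, from RefSeq on build GRCm38.p6, which is earlier than the build named for the deposited counts. Txnip is on the plus strand at chr3:96557707-96557956 and Arrdc4 on the minus strand at chr7:68749239-68749488, both written along the gene's strand. Capitals mark the paired E-box match (CACGTG 2 times, 5 bases apart, with up to 1 mismatch in each) in Txnip and the single E-box CACGTG in Arrdc4.
Txnip: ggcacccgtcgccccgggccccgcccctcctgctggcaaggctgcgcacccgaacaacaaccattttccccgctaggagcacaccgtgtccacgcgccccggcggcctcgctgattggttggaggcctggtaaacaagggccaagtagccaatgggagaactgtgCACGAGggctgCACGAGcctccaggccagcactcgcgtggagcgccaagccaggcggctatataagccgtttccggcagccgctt
Arrdc4: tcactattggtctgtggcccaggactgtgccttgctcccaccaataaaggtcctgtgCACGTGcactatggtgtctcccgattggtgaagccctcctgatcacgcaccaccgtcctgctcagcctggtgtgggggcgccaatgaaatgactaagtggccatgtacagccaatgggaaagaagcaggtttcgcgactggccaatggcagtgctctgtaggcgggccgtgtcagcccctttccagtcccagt

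The paired match in Txnip began 85 bases before the start and carried 1 mismatch in each E-box. The CACGTG in Arrdc4 began 193 bases before the start. In windows of 250 bases before to 50 bases after the start, searched on both strands, the paired element was in 2 of 165 windows of genes called higher (1.21%) and 0 of 148 windows of genes called lower. It was in 0.406% of 11341 windows of tested genes. The Txnip window shown above is 1 of the 2 windows of genes called higher. That share therefore rests in part on a gene already known as a MondoA target. The E-box CACGTG, which can also lie within the paired element, was in 12.1% of windows of genes called higher, 5.41% of those called lower and 9.99% of those of tested genes. The cyclic AMP response element TGACGTCA was in 1.21% of windows of genes called higher, 3.38% of those called lower and 3.08% of those of tested genes. The CCAAT box was in 34.5% of windows of genes called higher, 29.7% of those called lower and 38% of those of tested genes. Of the 294 called genes 231 had a window, and a match describes letters, not binding.

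Klf10, a zinc-finger repressor induced by TGF-β and by glucose, had 77.4, 77.1, 74.4 and 75.4 TPM with tirzepatide, against 52.1, 50.6, 56.3 and 51.7 TPM in controls. In cells given both agents it had 79.2, 86.3, 76.9 and 76.1 TPM, against 57.7, 57.0, 55.1 and 55.5 TPM with oxLDL alone. Every library with tirzepatide lay above every library without it. Its log2 change was 0.49 (SE 0.035, adjusted p = 2.96e-09 by edgeR's quasi-likelihood test), with 0.49 without oxLDL and 0.48 with it.

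Txnip, an α-arrestin that binds thioredoxin and drives glucose transporters off the membrane, had 982, 974, 968 and 974 TPM with tirzepatide, against 645, 705, 736 and 752 TPM in controls. The oxLDL with tirzepatide libraries had 864, 1030, 857 and 914 TPM, against 649, 674, 666 and 654 TPM with oxLDL alone. All libraries with the drug were again above all those without it. Over 8 against 8, the log2 change was 0.45 (SE 0.035, adjusted p = 6.13e-09, edgeR), with 0.43 and 0.47 in the settings without and with oxLDL.

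Arrdc4, which also restrains glucose uptake, had 40.2, 43.5, 40.9 and 38.0 TPM with tirzepatide, against 32.5, 29.0, 34.1 and 34.9 TPM in controls. Under oxLDL, the libraries with the drug had 30.6, 44.4, 34.6 and 37.9 TPM, against 29.9, 26.2, 27.7 and 25.2 TPM with oxLDL alone. The groups did not overlap within either setting, although the lowest library with both agents was close to the highest with oxLDL alone. The additive model gave a log2 change of 0.37 (SE 0.051, adjusted p = 0.000301, edgeR), and 0.32 without the library oxLDL with tirzepatide 2, which held the highest value. Klf10, Txnip and Arrdc4 were called in all 16 fits that left out a library.

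**Figure D2:**
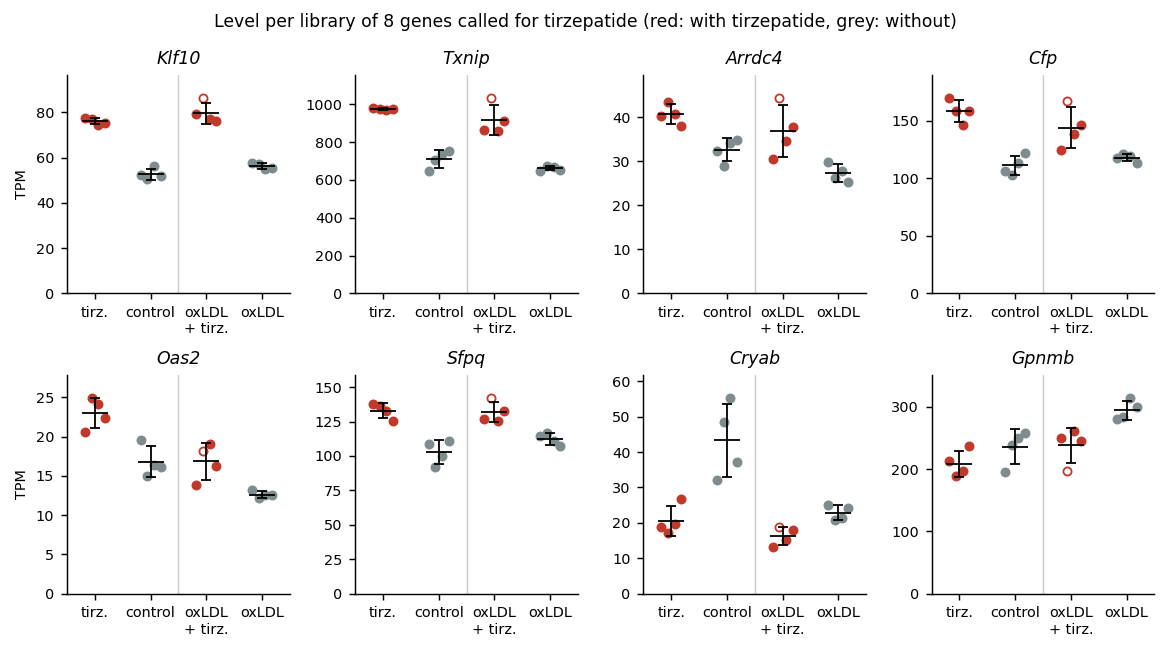
TPM per library for 8 called genes, with tirzepatide groups (red) left of the groups without it (grey) in each oxLDL setting; bars give the mean and SD of 4 libraries, and the open circle is the library labelled oxLDL with tirzepatide 2. Klf10 and Txnip show no overlap between red and grey points, while in Gpnmb 1 control at 195 TPM lies among the tirzepatide points.

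Other Krüppel-like factors moved with Klf10 only in part. Klf11, the closest relative of Klf10 and a repressor of the same subgroup, had 17.7 to 24.3 TPM with tirzepatide (median 19.5) and 12.7 to 21.0 TPM without (median 16.5). For Klf11 the log2 change was 0.26 (SE 0.050, adjusted p = 0.00679, edgeR). Klf10 and Klf11 were the 2 called of 11 tested family members (18.2%, against 2.6% of all genes), and the family's median log2 change was -0.04.

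Several genes of the innate cell surface and of secreted defence proteins rose with tirzepatide. Of 23 tested integrins and surface receptors 5 were called higher and 1 lower, against 1.39% and 1.21% of all genes, with a median log2 change of 0.09 over the 23. Of 9 tested innate secreted proteins 2 were called higher and none lower, with a median log2 change of 0.09 over the 9, and medians of 0.21 without oxLDL and -0.02 with it.

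Cfp, properdin, which stabilises the alternative complement convertase, had 170, 158, 146 and 158 TPM with tirzepatide, against 106, 103, 113 and 122 TPM in controls. Tirzepatide on top of oxLDL gave 125, 167, 138 and 146 TPM, against 117, 121, 119 and 114 TPM with oxLDL alone. All 8 libraries with the drug were above all 8 without it. The log2 change was 0.38 (SE 0.050, adjusted p = 0.000154, edgeR).

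Lcn2, a secreted protein that withholds iron from bacteria, had 632, 648, 572 and 568 TPM with tirzepatide, against 389, 302, 329 and 393 TPM in controls. With oxLDL and tirzepatide it had 248, 570, 310 and 314 TPM, against 237, 254, 277 and 265.4 TPM with oxLDL alone. The groups overlapped with oxLDL, and the 570 TPM came from the library labelled oxLDL with tirzepatide 2. Its log2 change was 0.62 (SE 0.107, adjusted p = 0.00352, edgeR), and 0.49 (adjusted p = 0.00214) without that library.

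Igsf6, an immunoglobulin-family receptor of myeloid cells, had 28.3, 28.2, 25.0 and 24.0 TPM with tirzepatide, against 19.3, 15.2, 13.4 and 16 TPM in controls. In cells given both agents it had 33.4, 34.3, 25.5 and 30.0 TPM, against 22.3, 26.1, 20 and 19.9 TPM with oxLDL alone. The groups separated without oxLDL, and with oxLDL they overlapped by 1 library on each side. Over 8 against 8, the log2 change was 0.58 (SE 0.085, adjusted p = 0.000733, edgeR).

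Itgam, the αM chain of the complement receptor Mac-1, had 73.9 to 85.6 TPM with tirzepatide (median 78.8) and 55.9 to 76.2 TPM without (median 66.9), a log2 change of 0.26 (adjusted p = 0.000866, edgeR). Itgal, the αL chain of LFA-1, had 152 to 163 TPM with tirzepatide and 120 to 148 TPM without, with no overlap, and a log2 change of 0.18 (adjusted p = 0.00352). Msr1, the class A scavenger receptor that takes up modified lipoproteins, had 99.8 to 117 TPM with tirzepatide (median 107) and 68.0 to 100 TPM without (median 88.4). Its log2 change was 0.31 (adjusted p = 0.00459, edgeR), with 0.44 without oxLDL and 0.17 with it. C3ar1, the receptor of the complement fragment C3a, had 45.8 to 52.2 TPM with tirzepatide and 36.1 to 45.2 TPM without, a log2 change of 0.24 (adjusted p = 0.00459).

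Some other called myeloid surface and signalling genes rose as well. Clec12a, an inhibitory lectin receptor, had a log2 change of 0.36 (adjusted p = 0.00578, edgeR) with all libraries with tirzepatide at 21.1 TPM or more and those without at 20.9 TPM or less. Irak3, an inhibitor of Toll-like receptor signalling, had a log2 change of 0.24 (adjusted p = 0.00742), and Atrn, attractin, one of 0.16 (adjusted p = 0.00242). Csf1r, the receptor for macrophage colony-stimulating factor, rose by only 0.11 (adjusted p = 0.0393), and was called in 7 of the 16 fits that left out a library. Within the list of integrins and surface receptors, only Tlr9, the endosomal receptor for bacterial DNA, was called lower. Its log2 change was -0.30 (adjusted p = 0.0492), called in 4 of those 16 fits. Outside the list, receptors such as Lrp8 (-0.28), Epha2 (-0.27) and Nod2 (-0.31) were called lower too.

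Markers of the macrophage itself moved in both directions. Of 19 tested markers, Itgam and Csf1r were called higher and Adgre1 and Cd68 lower (21.1%, against 2.6% of all genes). Adgre1, which encodes the F4/80 antigen, had 202, 186, 218 and 187 TPM with tirzepatide, against 213, 228, 257 and 240 TPM in controls. The oxLDL with tirzepatide libraries had 230, 202, 221 and 239 TPM, against 263, 244, 257 and 264 TPM with oxLDL alone. In TPM the groups overlapped slightly without oxLDL and did not overlap with it, while on TMM-scaled CPM they overlapped only with oxLDL. The additive model gave a log2 change of -0.18 (SE 0.033, adjusted p = 0.00578, edgeR). Cd68, a lysosomal glycoprotein of macrophages, had a log2 change of -0.12 (adjusted p = 0.0259) and was called in 13 of the 16 fits that left out a library.

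Interferon-stimulated genes leaned upwards. Of 34 tested, 5 were called higher and 1 lower, against 1.39% and 1.21% of all genes. A positive change was seen for 29, and for 23 in both settings, against 5567 and 3103 of all 11319 genes. The median log2 change was 0.13 with all libraries, 0.16 without oxLDL and 0.17 with it. Across the fits that left out a library the median stayed between 0.11 and 0.16. The number called higher was 2 without control 2, control 3, tirzepatide 1 or tirzepatide 3, 3 without oxLDL 3 or tirzepatide 2, and 8 without control 1.

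Oas2, an antiviral synthetase that makes 2′-5′ oligoadenylates in response to double-stranded RNA, had 20.6, 24.9, 24.1 and 22.4 TPM with tirzepatide, against 19.6, 15.0, 16.4 and 16.2 TPM in controls. Under oxLDL, the libraries with the drug had 13.8, 18.2, 19.1 and 16.3 TPM, against 13.2, 12.2, 12.5 and 12.5 TPM with oxLDL alone. The groups did not overlap in TPM in either setting, but on TMM-scaled CPM they overlapped without oxLDL. The TPM level with both agents was close to that of controls. The log2 change was 0.38 (SE 0.061, adjusted p = 0.0017, edgeR). Parp14, an interferon-induced ADP-ribosyltransferase, had 5.75, 5.42, 5.42 and 5.48 TPM with tirzepatide, against 3.82, 4.76, 3.70 and 4.96 TPM in controls. Tirzepatide on top of oxLDL gave 4.46, 4.40, 4.60 and 4.40 TPM, against 3.02, 3.92, 3.76 and 3.53 TPM with oxLDL alone. The groups were apart in both settings, and the log2 change was 0.33 (SE 0.064, adjusted p = 0.00742, edgeR).

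The other called members were smaller. Ifi207, a DNA-sensing family protein, rose by 0.18 (adjusted p = 0.0233, edgeR). Eif2ak2, the RNA-activated kinase PKR, rose by 0.17 (adjusted p = 0.0307), and Oas1a, another oligoadenylate synthetase, by 0.27 (adjusted p = 0.0339). They were called in 12, 9 and 6 of the 16 fits that left out a library. Herc6, the ISG15 ligase in mouse, fell, with a log2 change of -0.30 (adjusted p = 0.0102), and was called in all 16.

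Genes annotated to RNA splicing were called mostly higher. This group was taken from the table's own annotation after values had been seen, so it is a description. Of 263 tested genes annotated to RNA splicing, 15 were called higher and 1 lower, against 1.39% and 1.21% of all genes. The median log2 change over the 263 was only 0.03, against -0.00152 over all genes. All genes called higher had a median level of 63.6 TPM, against 23.5 TPM over all tested genes, and the part of level in the calls was not tested. The number called higher was 4 without control 2, control 3 or tirzepatide 1, 6 without tirzepatide 2, 8 without tirzepatide 3, and 27 without control 1. Sfpq, a paraspeckle protein that binds RNA and DNA, had 138, 136, 133 and 125 TPM with tirzepatide, against 108, 92.0, 100 and 111 TPM in controls. With oxLDL and tirzepatide it had 127, 142, 125 and 133 TPM, against 115, 116, 111 and 107 TPM with oxLDL alone. No library overlapped in either setting, and the log2 change was 0.28 (SE 0.043, adjusted p = 0.000866, edgeR).

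Srsf3, an SR splicing factor, had a log2 change of 0.20 (adjusted p = 0.0088, edgeR) and Hnrnpu, a nuclear matrix RNA-binding protein, one of 0.14 (adjusted p = 0.028), called in 9 of the 16 fits that left out a library. Thrap3, which joins splicing and transcription complexes, changed by 0.15 (adjusted p = 0.00742). Snrpg, a core protein of the spliceosomal small nuclear RNPs, was the member called lower, at -0.22 (adjusted p = 0.0408), and was called in 6 of the 16 fits that left out a library. Outside the annotated set, Bclaf1, a relative of Thrap3, changed by 0.22 (adjusted p = 0.00578) and Ccar1, a transcriptional coactivator, by 0.22 (adjusted p = 0.00352).

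GC content moved with the tirzepatide change and is given here because it touches several groups. The genes called higher had a median transcript GC content of 47.5%, those called lower 53.5%, and all tested genes 50.7%. Across 11288 genes, which are not independent and share the same libraries, Spearman's rho between the log2 change and GC content was -0.267, with -0.0944 without oxLDL and -0.341 with it. Libraries differed in this respect within groups: the correlation of a library's deviation from the mean of all libraries with GC content was 0.408 in tirzepatide 4, -0.543 in oxLDL with tirzepatide 1, -0.315 in control 1 and 0.443 in control 3. With an offset per library that removes the GC trend, chosen after the data were seen, 440 genes were called (236 higher, 204 lower), and 90.1% of the 294 were among them. The pancreatic amylases, Ahnak2, Lrp8, Epha2, Nod2 and H2-T24 were not looked at in that fit. Every other gene named here as called was also called with the offset.

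Cryab fell by more than any other gene named here apart from the pancreatic amylases. Cryab, αB-crystallin, a small heat shock chaperone, had 19.0, 17.1, 19.7 and 26.8 TPM with tirzepatide, against 32.2, 48.4, 55.2 and 37.3 TPM in controls. In cells given both agents it had 13.1, 18.7, 15.2 and 18.1 TPM, against 25.0, 21.0, 21.3 and 24.2 TPM with oxLDL alone. The groups did not overlap in either setting, and the level was also lower with oxLDL alone than in controls. Its log2 change was -0.83 (SE 0.128, adjusted p = 0.00104, edgeR), with -1.14 without oxLDL and -0.47 with it. Cryab was the 1 called of 16 tested heat shock chaperones (6.25%, against 2.6% of all genes), whose median log2 change was 0.02.

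Other genes fell by less. Tbc1d30, a Rab GTPase-activating protein, had 3.43 to 6.86 TPM with tirzepatide (median 4.80) and 5.56 to 8.66 TPM without (median 6.31), a log2 change of -0.52 (adjusted p = 0.00113, edgeR). Ppfibp2, a liprin-β scaffold protein, had 21.6, 19.7, 20.8 and 20.3 TPM with tirzepatide, against 22.3, 25.8, 25.2 and 24.3 TPM in controls. The oxLDL with tirzepatide libraries had 18.5, 21.2, 20.3 and 19.6 TPM, against 21.8, 23, 25.8 and 23.6 TPM with oxLDL alone. All libraries with the drug were below all those without it, and the log2 change was -0.25 (SE 0.040, adjusted p = 0.0017, edgeR). Parvb, an adaptor between integrins and actin, changed by -0.25 (adjusted p = 0.00465), Lrch1 by -0.20 (adjusted p = 0.00414) and Ahnak2 by -0.39 (adjusted p = 0.0036).

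Members of the lysosome and autophagy list were lower where they were called. Of 44 tested members 5 were lower and none higher, against 1.21% and 1.39% of all genes, and the median log2 change was -0.04, with -0.02 without oxLDL and -0.08 with it. Leaving out tirzepatide 1 left 2 called, and leaving out control 2, 3 or 4, oxLDL 3 or 4, or tirzepatide 2 or 3 left 3. Gpnmb, a lysosomal membrane glycoprotein that marks lipid-loaded macrophages, had 212, 189, 197 and 237 TPM with tirzepatide, against 195, 239, 251 and 259 TPM in controls. Under oxLDL, the libraries with the drug had 251, 197, 261 and 245 TPM, against 280, 284, 314 and 300 TPM with oxLDL alone. The groups overlapped without oxLDL, through control 1 at 195 TPM, and separated with it. Over 8 against 8, the log2 change was -0.27 (SE 0.047, adjusted p = 0.00352, edgeR), and -0.24 without the library oxLDL with tirzepatide 2.

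Hexa, the α subunit of lysosomal β-hexosaminidase, had 229, 224, 228 and 243 TPM with tirzepatide, against 223, 265.4, 274 and 270 TPM in controls. Tirzepatide on top of oxLDL gave 243, 240, 271 and 256 TPM, against 277, 273, 290 and 284 TPM with oxLDL alone. Control 1 lay below its group, and without it the groups would not have overlapped. The additive model gave a log2 change of -0.17 (SE 0.031, adjusted p = 0.00459, edgeR). Psap, the precursor of the saposins, changed by -0.14 (adjusted p = 0.0342), Gabarapl1, an autophagosome protein, by -0.15 (adjusted p = 0.0201), and Mitf, a transcription factor of lysosomal genes, by -0.21 (adjusted p = 0.0423). Psap, Gabarapl1 and Mitf were called in 8, 15 and 5 of the 16 fits that left out a library.

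Messengers of cytosolic ribosomal proteins were lower by small amounts. Of 82 tested, 22 were called lower and none higher, against 1.21% of all genes called lower. Both settings were negative for 75 of them, against 3257 of all 11319 genes. Their median level was 1440 TPM, against 23.5 TPM over all tested genes, and the part of level in the calls was not tested. The median log2 change was -0.11, with -0.14 without oxLDL and -0.07 with it. Ribosomal protein messengers made up 5.46% to 5.73% of counts with tirzepatide, against 5.78% to 6.34% in controls, and 5.22% to 5.62% with oxLDL and tirzepatide, against 5.65% to 5.86% with oxLDL alone. The share did not overlap between groups in either setting. The number called lower was 3 without control 2, control 3 or tirzepatide 1, 4 without tirzepatide 2, 7 without oxLDL 4, 10 without oxLDL 2 or tirzepatide 3, and 36 without control 4, while the median stayed between -0.134 and -0.105.

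Rps28, of the small subunit, had 320, 351, 393 and 314 TPM with tirzepatide, against 474, 471, 510 and 403 TPM in controls. With oxLDL and tirzepatide it had 339, 332, 391 and 380 TPM, against 363, 421, 394 and 426 TPM with oxLDL alone. The groups were apart without oxLDL and overlapped with it. The log2 change was -0.33 (SE 0.062, adjusted p = 0.00578, edgeR). Rpl3, of the large subunit, had 2450 to 2660 TPM with tirzepatide and 2590 to 3070 TPM without, a log2 change of -0.14 (adjusted p = 0.00684), and Rpl10a changed by -0.17 (adjusted p = 0.0102). Rpl23a had 3150, 3270, 3300 and 3220 TPM with tirzepatide, against 3370, 3700, 3710 and 3380 TPM in controls. In cells given both agents it had 2910, 3280, 3250 and 3220 TPM, against 3310, 3520, 3300 and 3480 TPM with oxLDL alone. There was no overlap in TPM in either setting, but on TMM-scaled CPM the groups overlapped with oxLDL. For Rpl23a the log2 change was -0.13 (SE 0.033, adjusted p = 0.027), called in 11 of the 16 fits that left out a library. Ribosomal protein genes have many processed pseudogenes with near-identical sequence, and how the counting shared reads with them is not given in the sources used here.

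**Figure D3:**
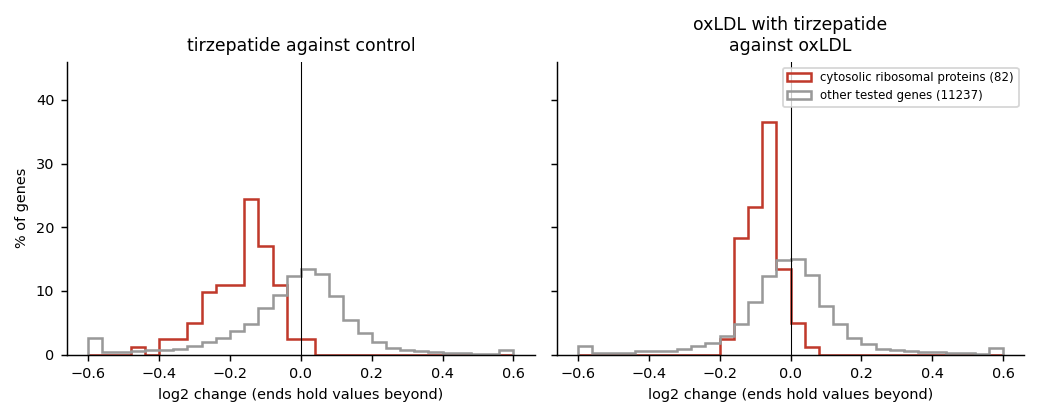
Share of genes (%) by log2 change with tirzepatide, for 82 cytosolic ribosomal protein genes (red) and the other tested genes (grey), without oxLDL on the left and with oxLDL on the right. The red distribution lies mainly below zero in both panels, with a median of -0.14 without oxLDL and -0.07 with it.

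Early response factors and cytokines had 1 called member each. Egr1, a zinc-finger factor induced within minutes by growth signals, had 8.14, 8.32, 7.43 and 9.43 TPM with tirzepatide, against 8.32, 9.78, 9.88 and 10.0 TPM in controls. The oxLDL with tirzepatide libraries had 5.59, 6.26, 7.20 and 6.12 TPM, against 8.08, 8.04, 8.71 and 8.83 TPM with oxLDL alone. The groups overlapped without oxLDL and separated with it. Its log2 change was -0.32 (SE 0.062, adjusted p = 0.00691, edgeR). It was the 1 called of 15 AP-1 and EGR factors (6.67%, against 2.6% of all genes).

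Il15, a cytokine that sustains natural killer and memory T cells, had 9.92, 9.23, 9.98 and 7.94 TPM with tirzepatide, against 12.3, 17.7, 15.7 and 12.7 TPM in controls. Under oxLDL, the libraries with the drug had 5.56, 7.98, 5.89 and 6.45 TPM, against 9.54, 7.78, 10.9 and 11.6 TPM with oxLDL alone. The groups were apart without oxLDL and overlapped by 1 library on each side with it. Over 8 against 8, the log2 change was -0.54 (SE 0.108, adjusted p = 0.00742, edgeR). Il15 was the 1 called of 22 cytokines and chemokines (4.55%, against 2.6% of all genes). Of 21 antigen presentation genes 2 were called, both lower (9.52%, against 2.6% of all genes called either way). The class I heavy chains H2-D1 and H2-K1 changed by -0.16 (adjusted p = 0.0251) and -0.19 (adjusted p = 0.0404). They were called in 10 and 7 of the 16 fits that left out a library. These 2 genes are near-identical over much of their length, so the counts may share reads. Outside the list, H2-T24, another class I gene, was called higher. Its log2 change was 0.23 (adjusted p = 0.0247, edgeR), called in 12 of the 16 fits.

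A few metabolic genes were called. G6pdx and Pgd, the dehydrogenases of the oxidative pentose phosphate pathway, rose by 0.18 (adjusted p = 0.0201, edgeR) and 0.15 (adjusted p = 0.0347). Their changes were 0.31 and 0.27 without oxLDL, and 0.05 and 0.04 with it. They were the 2 called of 30 tested NRF2 targets (6.67%, against 2.6% of all genes). Pfkm, a phosphofructokinase, changed by -0.22 (adjusted p = 0.0317) and Ero1a, an oxidase of the endoplasmic reticulum, by 0.12 (adjusted p = 0.0404). Chac1, a glutathione-degrading enzyme of the ATF4 response, changed by 0.21 (adjusted p = 0.0299). With each library left out in turn, G6pdx was called in 12 of 16 fits, Pgd in 7, Pfkm and Chac1 in 9 and Ero1a in 4.

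The additive coefficient did not describe genes whose change differed between the settings. By edgeR's interaction test, 59 of the 294 called genes had an unadjusted p below 0.05, against 1168 of 11319 tested. Among the 59 were G6pdx, Pgd, Cryab, Itgal, Itgam and Msr1. After adjustment 2 of the called genes remained, Acod1 and Stc1. Acod1, which makes the immunometabolite itaconate, had 26.6, 24.0, 22.7 and 23.4 TPM with tirzepatide, against 14, 11.2, 12.7 and 12.6 TPM in controls. Tirzepatide on top of oxLDL gave 24.0, 23.3, 22.7 and 23.9 TPM, against 24.9, 23.2, 22.1 and 21.4 TPM with oxLDL alone. It was therefore higher with tirzepatide only where oxLDL was absent, and the interaction had an adjusted p of 0.000704 (edgeR). Its additive log2 change of 0.45 (adjusted p = 0.0225) averages 0.90 without oxLDL and 0.03 with it. Stc1, a secreted glycoprotein, was likewise called for the coefficient at -0.26 (adjusted p = 0.0449), with -0.52 without oxLDL and 0.01 with it (interaction adjusted p = 0.0221). Acod1 was called for the coefficient in 12 of the 16 fits that left out a library and Stc1 in 5.

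Amy2a2, Amy2a3 and Amy2a4, pancreatic amylases with identical counts, were called lower with a log2 change of -4.54 (adjusted p = 0.00691, edgeR). They are acinar genes, the acinar level was highest in controls 1 and 2, and they count as 3 of the 137 genes called lower. The acinar share of counts as a covariate left 276 genes called, 248 of them among the 294.

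The drug's own pathway showed no called gene. Gipr, the GIP receptor, had 1.49 to 3.10 TPM with tirzepatide (median 2.59) and 1.72 to 3.64 TPM without (median 2.26), with a log2 change of -0.07 (adjusted p = 0.881, edgeR). Glp1r, the GLP-1 receptor, had 5 counts summed over all 16 libraries and was not tested. None of the 17 tested genes of incretin receptors and cyclic AMP machinery was called. None of the 14 cyclic AMP and CREB early targets was either, and the lists had median log2 changes of -0.02 and -0.05. As only 2.6% of all genes were called, lists of this size can hold no called gene at that same share.

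Several inflammatory genes did not pass the test over 8 against 8. Tnf, tumour necrosis factor, had 108 to 172 TPM with tirzepatide (median 150) and 109 to 167 TPM without (median 139), a log2 change of 0.01 (adjusted p = 0.96, edgeR). Nos2, the inducible nitric oxide synthase, had 42.5 to 74.8 TPM with tirzepatide (median 59.4) and 49.5 to 82.7 TPM without (median 57.4), a log2 change of -0.15 (adjusted p = 0.193). Without oxLDL with tirzepatide 2 and controls 1 and 2, the Nos2 change was -0.26 (adjusted p = 0.00421, edgeR). Without oxLDL with tirzepatide 2 alone, it was -0.19 (adjusted p = 0.0769). Nos2 was called in 1 of the 16 fits that left out a library. Il6 and Ccl2 had log2 changes of -0.09 (adjusted p = 0.899) and 0.30 (adjusted p = 0.364). None of 20 inflammasome and NF-kB feedback genes was called, against 2.6% of all genes. Of 15 classical activation markers only Acod1 was (6.67%, against 2.6% of all genes), and of 7 tested alternative activation markers none was. Arg1 and Mrc1, alternative activation markers, had 6 and 3 counts summed over all libraries and were not tested.

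For Il1b the outcome turned on 1 library. It had 3.72, 3.48, 4.03 and 3.38 TPM with tirzepatide, against 1.15, 1.57, 2.00 and 0.457 TPM in controls. With oxLDL and tirzepatide it had 23.2, 3.91, 25.9 and 23.4 TPM, against 16.4, 18.7, 16.8 and 13.7 TPM with oxLDL alone. Apart from the library labelled oxLDL with tirzepatide 2, the libraries with the drug were higher in both settings. With all libraries the log2 change was 0.54 (SE 0.268, adjusted p = 0.29, edgeR), and without that library it was 0.80 (adjusted p = 0.00834).

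Lipid-handling genes gave few calls. Of 27 tested foam cell genes, Msr1 was called higher and Gpnmb and Cd68 lower (11.1%, against 2.6% of all genes). None of 15 LXR targets and none of 25 cholesterol synthesis and uptake genes was called, against 2.6% of all genes. Abca1, the cholesterol exporter, had 113 to 173 TPM with tirzepatide and 105 to 170 TPM without, a log2 change of 0.14 (adjusted p = 0.0991, edgeR), or 0.08 (adjusted p = 0.1) without the library labelled oxLDL with tirzepatide 2. Cd36, a scavenger receptor, had 21 counts over all libraries and was not tested. Plin2 had 509, 506, 520 and 490 TPM with tirzepatide, against 363, 310, 330 and 361 TPM in controls. In cells given both agents it had 708, 524, 727 and 785 TPM, against 712, 730, 708 and 694 TPM with oxLDL alone. The groups separated without oxLDL and overlapped with it, and the log2 change was 0.23 (adjusted p = 0.111), or 0.30 (adjusted p = 0.01) without the library labelled oxLDL with tirzepatide 2.

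Cell cycle genes gave few calls. The 42 tested mitosis and G2/M genes had a median log2 change of 0.18 without oxLDL and 0.000936 with it. None was called, against 2.6% of all genes, and the difference between the settings was not tested for the list. Of 45 DNA replication genes 1 was called (2.22%, against 2.6% of all genes). It was Rrm2, a ribonucleotide reductase subunit, at 0.13 (adjusted p = 0.0499, edgeR), called in 3 of the 16 fits that left out a library. None of 20 p53 targets and none of 13 mitochondrially encoded messengers was called, against 2.6% of all genes.

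**Figure D4:**
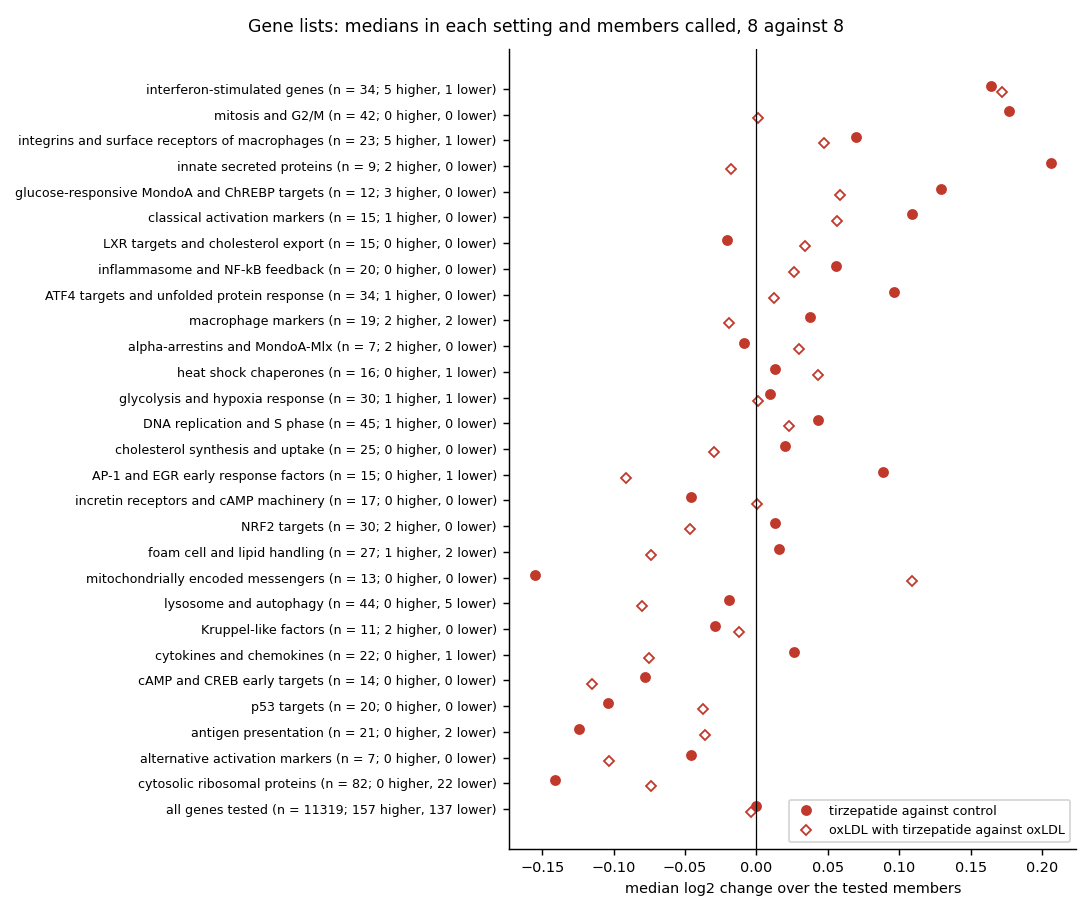
Median log2 change with tirzepatide over the tested members of each gene list, without oxLDL (filled circles) and with it (open diamonds); each label gives the number tested and the members called higher and lower over 8 against 8. The interferon-stimulated genes have medians of 0.16 and 0.17 and the cytosolic ribosomal proteins -0.14 and -0.07, while all tested genes sit close to zero.

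**Figure D5:**
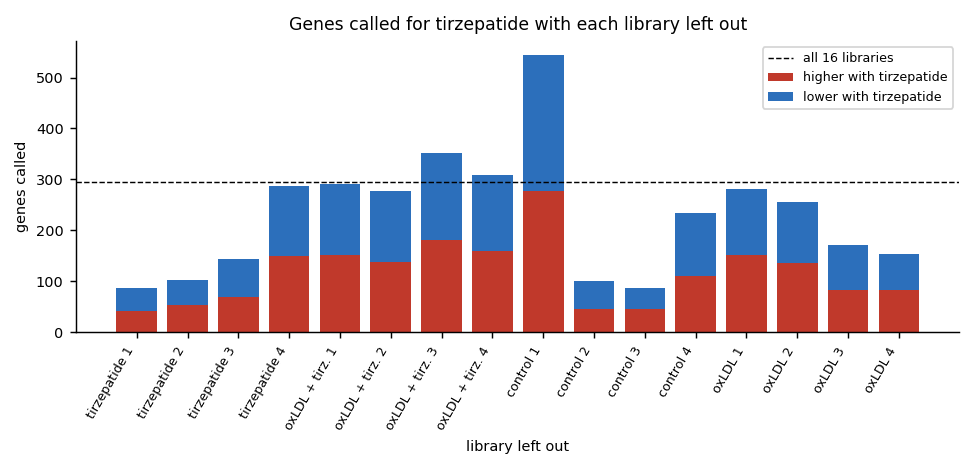
Number of genes called for tirzepatide with each library left out, split into higher (red) and lower (blue); the dashed line is the 294 genes called with all 16 libraries. Counts run between 86 without tirzepatide 1 and 545 without control 1.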

How the data were processed

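RNA was sequenced from 16 libraries in 4 groups of 4. Per the submitters' processing notes, the tools were RSEM, Bowtie2 2.2.8, fastp 0.18.0 and StringTie 1.3.1, and the builds GRCm39 and mm39. The authors' deposited table gives, for each gene in each library, an RSEM expected count, rounded here for the tests, and the authors' TPM, used here for printed levels. The table held 21965 genes, and 11319 passed edgeR's filterByExpr with a minimum count of 10.

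The additive model (oxLDL and tirzepatide) and a fit with a mean per group were run with TMM scaling in edgeR 4.0.16 (R 4.3.3), with quasi-likelihood tests and Benjamini-Hochberg adjustment over all tested genes. The fit was tested on simulated data. The biological coefficient of variation was 0.0654. Between replicates of a group, the chi-square per degree of freedom was 2.71 to 17.7 over 24 pairs, so replicates differed by more than counting error.

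Named genes were those with the smallest p each way, those whose libraries did not overlap, up to 3 called members of each of 28 lists, and fixed genes of incretin, inflammatory and lipid biology; some are not reported here. Members, lists and the comparison were chosen with earlier results of these data known. Promoter windows and transcript GC content came from annotations of an earlier mouse build. DESeq2 1.42.0 and limma 3.58.1 served as alternatives, with other filters and scalings, a replicate block, each library left out in turn and a GC offset, the last chosen after the data were seen.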

Additional observations from a re-analysis of the deposited data

Results flagged for a closer look

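In 104 groups of 4 libraries examined for a single library far from the rest, 5 were found, and chance gives about 1 in 20. Il1b had 3.91 TPM in oxLDL with tirzepatide 2, against 23.2 to 25.9 TPM in the other 3 libraries of the group. Parp14 had 5.75 TPM in tirzepatide 1, against 5.42 to 5.48 TPM in the other 3. Nos2 had 74.8 TPM in tirzepatide 4, against 60.9 to 61.6 TPM. Hexa had 223 TPM in control 1, against 265.4 to 274 TPM, and Egr1 had 8.32 TPM there, against 9.78 to 10.0 TPM.

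The tirzepatide change differed between the oxLDL settings by edgeR's test of the interaction for named genes. The interaction, the log2 change with oxLDL minus that without, was -0.87 for Acod1, 0.526 for Stc1, -0.398 for Sema3e, -0.589 for Plin2, -0.696 for Cxcl2, a neutrophil chemokine, and -0.423 for Nlrp3, a sensor of the inflammasome. The Plin2 value includes the library labelled oxLDL with tirzepatide 2, whose level was 524 TPM, against 708 to 785 TPM in the rest of its group; its part in the interaction was not tested.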

How the results depend on the processing

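Against 294 calls, the count was 490 with a replicate block, 569 with DESeq2, 720 with the mitochondrial share as covariate, 75 with a fold of at least 1.2, 21 in libraries numbered 1 and 2 and 106 in those numbered 3 and 4, and 86 to 545 with a library left out. For calls with the same sign in both settings (292), the block gave 488, an unadjusted p below 0.05 in each setting 178, no overlap 50, and leaving out a library 86 to 544. For tirzepatide against control (462) the block gave 750 and leaving out a library 119 to 542. For oxLDL with tirzepatide against oxLDL (4) the block gave 17, DESeq2 21 and leaving out a library 2 to 8. For the interaction (8) the block gave 29, DESeq2 58 and leaving out a library 1 to 16. The causes were not tested. Same-numbered libraries deviated together with a median correlation of 0.0176 (-0.127 to 0.189 over 24 pairs), so the numbers were not read as pairing, and 6 of 16 libraries correlated best with their own number. In every group, though, the mitochondrial share of counts was higher in numbers 1 and 2 than in 3 and 4. In controls it was 11.2% and 9.53% against 8.39% and 8.32%, and with tirzepatide 8.67% and 8.67% against 8.18% and 8.23%. A factor tied to the numbers was not tested. All 294 genes were among the 490 called with the block. Signs turned for 3 genes whose 8 against 8 coefficient was never called. Cxcl2 was -0.10 in libraries numbered 1 and 2, and with all libraries its change was 0.41 without oxLDL and -0.28 with it. Gipr was 0.016 with limma after quantile normalization, 0.21 in numbers 3 and 4, and -0.13 to 0.0021 with a library left out. Tnf was -0.011 with limma, -0.022 in numbers 3 and 4, -0.035 without oxLDL with tirzepatide 2 and controls 1 and 2, and -0.048 to 0.024 with a library left out. At this depth genes with a few counts in all, such as Glp1r with 5, could not be tested.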
